A study of Mus musculus with 6 samples.

Results

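Collagen chain genes were examined in creeping fat and healthy mesenteric fat of mice. They are the rows of the deposited table whose symbol reads Col, a number, a and a number, and 44 of the 22134 genes in the table fit that pattern. They fall into 6 groups by the structure that each chain builds: 11 fibrillar chains, 9 network chains, 6 beaded chains, 9 fibril-associated chains, 4 transmembrane chains and 5 others (the anchoring fibril chain, the multiplexins and a pair without a settled class). Total RNA was sequenced from 6 libraries of adipose tissue, all from wild-type mice. The 3 libraries of creeping fat, creeping fat 1 to 3, came from mice with repeated cautery injury of the colon, and the 3 libraries control 1 to 3 were mesenteric adipose tissue from mice with no injury. The labels give neither strain, sex nor age, and they do not say whether each library is a different animal. The p-values therefore reflect the variation among these libraries, some of which may be technical.

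Creeping fat is mesenteric fat that wraps around damaged bowel, and it is known from Crohn's disease. Collagens are matrix proteins made of 3 chains wound into a triple helix, which needs glycine at regular steps along each chain. Fibrillar collagens assemble into the cables that give tissue its tensile strength, network collagens form sheets such as the basement membrane around adipocytes and vessels, and beaded type VI collagen forms fine filaments that are abundant around adipocytes. Fibril-associated collagens decorate the surface of the cables, and transmembrane collagens are anchored in the cell membrane.

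The defining repeat can be read from the coding sequences of GENCODE M21 (GRCm38), where glycine codons begin with GG. A triplet here is a glycine codon followed by any 2 codons. The longest unbroken run held 216 to 344 triplets in the 11 fibrillar chains and 39 to 66 in the 9 network chains. In the 6 beaded chains it held 37 to 87 triplets, and in the 9 fibril-associated chains 32 to 113. Col1a2 and Col3a1 had unbroken runs of 339 and 344 triplets, whereas Col4a1 had 18 runs of at least 10 triplets with breaks between them. The 75 coding bases below, read 5′ to 3′, open the longest run of 4 chains and cross a break in Col4a1, and capitals mark the first codon of each triplet in runs of at least 10 triplets, so that a glycine codon at another place of a triplet is in lower case.
Col1a2: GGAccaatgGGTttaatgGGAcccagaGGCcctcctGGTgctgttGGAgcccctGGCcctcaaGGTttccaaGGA
Col3a1: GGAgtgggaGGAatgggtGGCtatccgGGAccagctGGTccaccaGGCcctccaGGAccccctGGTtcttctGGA
Col24a1: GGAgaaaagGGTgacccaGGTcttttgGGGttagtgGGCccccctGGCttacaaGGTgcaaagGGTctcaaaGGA
Col6a1: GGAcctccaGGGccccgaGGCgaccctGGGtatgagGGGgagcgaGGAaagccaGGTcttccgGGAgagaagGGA
Col4a1: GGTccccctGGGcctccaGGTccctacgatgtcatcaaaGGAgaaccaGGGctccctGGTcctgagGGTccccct
The stretches begin at codon 97 of Col1a2, 164 of Col3a1, 568 of Col24a1, 256 of Col6a1 and 1344 of Col4a1. Of these 5 chains, picked as examples, Col4a1 was the one that did not pass the test between the groups. Among the other chains, Col4a5 and Col4a6, with 17 and 18 runs of at least 10 triplets, passed as higher. Col5a3, with a longest run of 337 triplets, did not pass. A link between the repeat and the change was not tested.

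Levels are given as FPKM (fragment counts corrected for gene length and sequencing depth), which lets chains of different length be compared. Library totals recovered from the values were 32837045 to 36158204 reads in creeping fat and 31186018 to 43415696 in controls. For a 1-kilobase gene, a floor of 3 reads equals 0.0830 to 0.0914 FPKM in creeping fat and 0.0691 to 0.0962 FPKM in controls, which covers counting error only. Over all tested genes, which are not replicates, pairs of creeping fat libraries had log2 values with a correlation of 0.952 to 0.976. For pairs of controls it was 0.898 to 0.982, and for mixed pairs 0.788 to 0.867. Leaving out control 2 moved the number of called genes more than leaving out any other library and moved the median log2 fold change of all tested genes to 0.13, against 0.02 with all 6 libraries. In control 2, lymphocyte markers summed to 371 FPKM, against 91.7 and 115 FPKM in controls 1 and 3 and 56.5 to 191 FPKM in creeping fat. The part of lymphocytes in the results was not tested. The 10 adipocyte marker genes were above 0 in every library. They summed to 1160 to 3024 FPKM in creeping fat and to 15518, 5288 and 13221 FPKM in controls 1 to 3. All 10 had every creeping fat value below every control, as did 16.9% of all tested genes. Of the 10, 9 passed the limma test as lower (Benjamini-Hochberg adjusted p under 0.05, as did 6.81% of all tested genes). Seminal vesicle markers summed to 15958 to 30923 FPKM in creeping fat and 0.171 to 53.5 FPKM in controls, and exocrine pancreas markers to 28.1 to 5635 FPKM in creeping fat and 17048 to 43652 FPKM in controls, so transcripts typical of other organs moved with the groups. The labels do not mention these organs or say where along the mesentery the tissue was taken. Differences in the tissue sampled and effects of the injury cannot be told apart in these groups, for any value given here. Fibroblast markers summed to 2376 to 3133 FPKM in creeping fat and 710 to 1057 FPKM in controls, and 7 of 10 passed as higher (9.35% of all tested genes did). Macrophage markers summed to 1608 to 2180 FPKM in creeping fat and 368 to 1046 FPKM in controls, and the part of these cells and of seminal vesicle and pancreas tissue in the collagen results was not tested. In bulk tissue, more cells of a type and more RNA per cell cannot be told apart.

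Collagen transcripts took up a far larger part of the RNA in creeping fat. Of the FPKM total, 3.80%, 3.91% and 2.79% came from collagen chains in creeping fat 1 to 3, whereas controls 1 to 3 had 0.341%, 0.294% and 0.423%. The means were 3.50% ± 0.618 in creeping fat and 0.352% ± 0.0653 in controls (SD, n = 3 each), and the groups were far apart. Counted as recovered reads, collagen chains made up 7.35%, 8.04% and 5.73% of reads in creeping fat and 0.763%, 0.622% and 0.896% in controls. No p is given for these sums, because the chains were grouped with earlier results of these data known. With the seminal vesicle and pancreas genes left out of the totals, the shares averaged 3.80% in creeping fat and 0.387% in controls.

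Of the 44 chains, 31 passed the expression filter of at least 1 FPKM in at least 3 libraries and were tested. In limma on log2(FPKM + 1), 18 of the 31 rose and 0 fell at a Benjamini-Hochberg adjusted p under 0.05, that is 58.1% higher, against 9.35% of all 12812 tested genes higher and 6.81% lower. At an unadjusted p under 0.05, 20 chains were higher and 1 lower, against 17.0% of all tested genes higher and 13.7% lower, and limma's voom on recovered reads also called 18 higher and 0 lower. The median log2 fold change was 1.75 over the tested chains and 0.02 over all tested genes. All 3 creeping fat libraries lay above all 3 controls in 20 of the 31 chains (20.2% of all tested genes) and below them in 1 chain, Col28a1 (16.9% of all tested genes). A chain that is high in creeping fat alone can pass the filter through that group, and Col28a1 passed it through the controls alone. Of the 31 chains, 4 had at least 1 FPKM in every creeping fat library and in fewer than 3 controls. They were Col7a1, Col8a2, Col11a1 and Col24a1, of which Col8a2 and Col24a1 were called higher, and Col24a1 reached 1 FPKM in no control. Of the 25 chains with at least 1 FPKM in all 6 libraries, 16 rose. Without control 2 the calls came to 22 chains higher and 1 lower, while the share of all tested genes called was 22.6% higher and 14.5% lower.

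**Figure D1:**
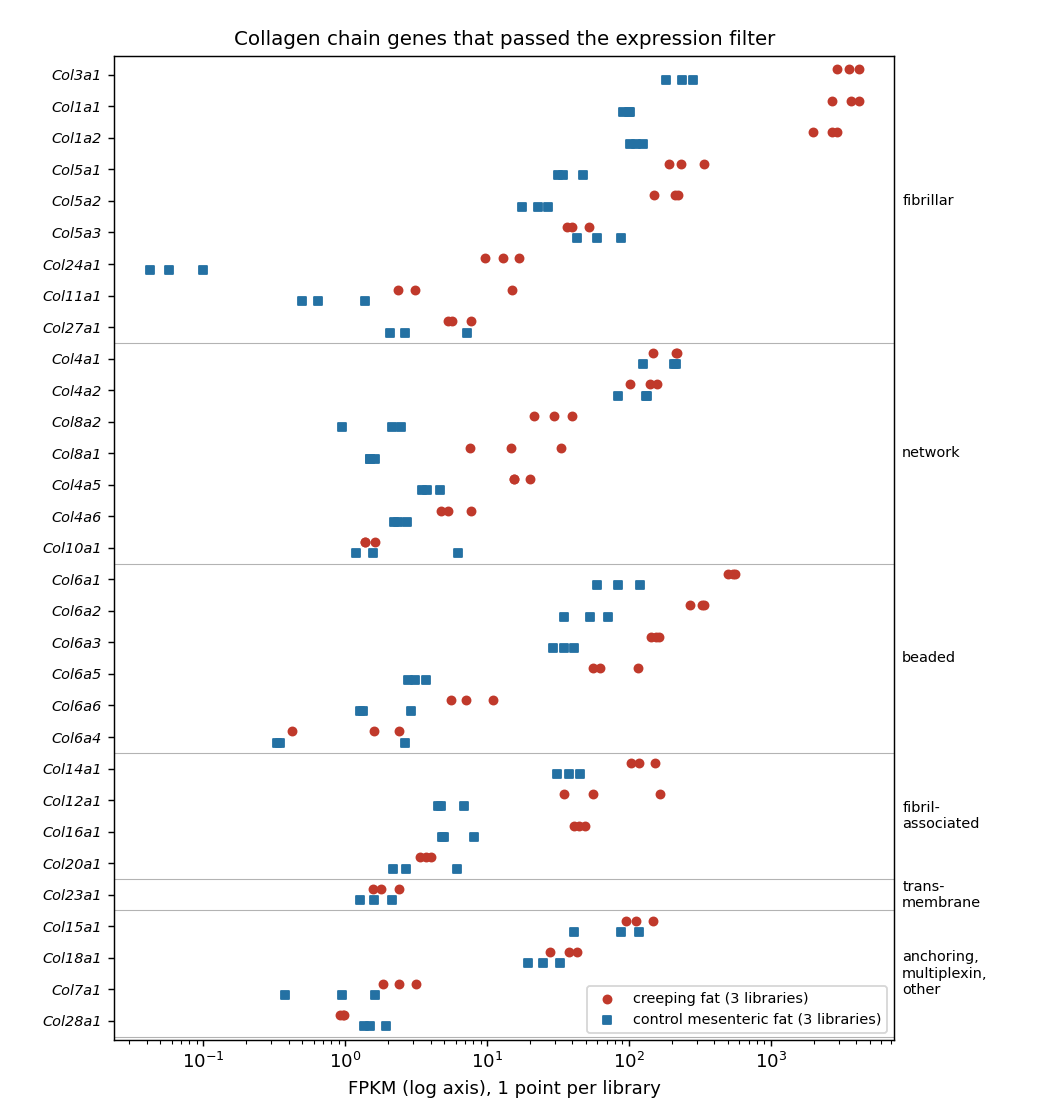
FPKM of the 31 tested collagen chain genes in each library (log axis), with circles for the 3 creeping fat libraries set above squares for the 3 control libraries, grouped by collagen type. Col1a1, Col1a2 and Col3a1 stand near the right edge in creeping fat, between 1997 and 4175 FPKM, and Col24a1 has the lowest control values, between 0.0421 and 0.10 FPKM.

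Fibrillar chains had the highest median rise of the 6 groups. Of 11 fibrillar chains 9 were tested and 6 rose (Col1a1, Col1a2, Col3a1, Col5a1, Col5a2 and Col24a1), with a median log2 fold change of 3.07. Col1a1, the major chain of type I collagen, had creeping fat values of 3690, 4172 and 2717 FPKM. Controls had 91.3, 101 and 100 FPKM. Every creeping fat library stood far above every control. Col1a1 rose by 5.14 ± 0.21 on the log2 scale (SE, as for every log2 fold change given here; limma adjusted p = 9.72e-05), the 17th largest rise among the 12812 tested genes, and its mean FPKM was 36.2 times that of controls. Its partner Col1a2 stood at 2690, 2915 and 1997 FPKM in creeping fat and 101, 126 and 113 FPKM in controls. Col1a2 rose by 4.46 ± 0.21 (limma adjusted p = 0.000157). The groups were again wide apart, with creeping fat 3 the lowest of its group for both chains of type I.

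Col3a1, which forms the homotrimeric type III collagen of distensible tissue, had the highest mean level of all chains in each group, close to Col1a1 in creeping fat. It had 3548, 4175 and 2916 FPKM in creeping fat, against 236, 182 and 284 FPKM in controls. The rise of 3.92 ± 0.25 (limma adjusted p = 0.000475) came with a mean FPKM 15.2 times that of controls. Col5a1 and Col5a2 encode type V collagen, which sits inside type I fibrils and limits their diameter. Col5a1 stood at 231, 338 and 190 FPKM in creeping fat and 34.1, 31.8 and 47.3 FPKM in controls, a rise of 2.69 ± 0.26 (limma adjusted p = 0.00194). Col5a2 stood at 223, 212 and 151 FPKM in creeping fat and 23, 17.5 and 26.7 FPKM in controls, a rise of 3.07 ± 0.22 (limma adjusted p = 0.000812). The remaining type V chain, Col5a3, had the lower mean in creeping fat, with 36.4, 52.1 and 39.8 FPKM in creeping fat and 59.3, 42.9 and 87.3 FPKM in controls. Its groups overlapped through control 2 and it was not called (-0.51 ± 0.28, limma adjusted p = 0.279), although without control 2 it was called lower (-0.75, limma adjusted p = 0.0364).

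Col24a1, a fibrillar chain best known from developing bone and cornea, was nearly silent in control fat. It had 13.0, 16.8 and 9.67 FPKM in creeping fat, against 0.0571, 0.10 and 0.0421 FPKM in controls. The recovered reads were 3607, 4499 and 2432 in creeping fat and 17, 24 and 14 in controls, so the control values rest on few reads but lie above 3 reads in each library. No control reached 1 FPKM, so Col24a1 passed the filter through creeping fat alone, where it is high. Its mean FPKM was 198 times that of controls, the largest ratio of means among the chains. Because of the added 1, its log2 fold change depended on the scale: 3.70 ± 0.21 on log2(FPKM + 1) (limma adjusted p = 0.000304), 6.30 with 0.1 added and 7.69 by voom on recovered reads.

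The other fibrillar chains were weakly expressed. Col11a1, which nucleates thin fibrils in cartilage and in remodelling stroma, had 15.1, 3.09 and 2.37 FPKM in creeping fat and 0.649, 1.38 and 0.493 FPKM in controls. All creeping fat libraries lay above all controls, yet creeping fat 1 was 6.36 times creeping fat 3, and the chain was not called (1.75 ± 0.58, limma adjusted p = 0.0891). It was called without control 2 (1.95, limma adjusted p = 0.0499), and without creeping fat 1 it stood at 1.04 (limma adjusted p = 0.0799). The 8 chondrocyte markers summed to 9.49, 5.70 and 3.31 FPKM in creeping fat and 1.24 to 2.87 FPKM in controls. Comp alone made up 6.71 FPKM of the sum in creeping fat 1, and the other 7 markers summed to 2.78, 4.68 and 1.97 FPKM in creeping fat, highest in creeping fat 2, and 0.692 to 2.17 FPKM in controls. Of the 8 markers, Acan, Matn1, Matn3 and Snorc were at 0 in at least 1 library, and the part of such cells was not tested. Col27a1, a fibrillar chain of cartilage, averaged 6.22 ± 1.29 FPKM in creeping fat and 3.97 ± 2.80 FPKM in controls (SD, n = 3 each), where control 2 stood at 7.18 FPKM among the creeping fat values. It was not called (0.67 ± 0.37, limma adjusted p = 0.287) but was called without control 2 (1.10, limma adjusted p = 0.00436). Col2a1, the cartilage collagen, had at most 12 recovered reads in any library, and Col11a2 stayed between 0.246 and 1.66 FPKM. Neither passed the filter.

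**Figure D2:**
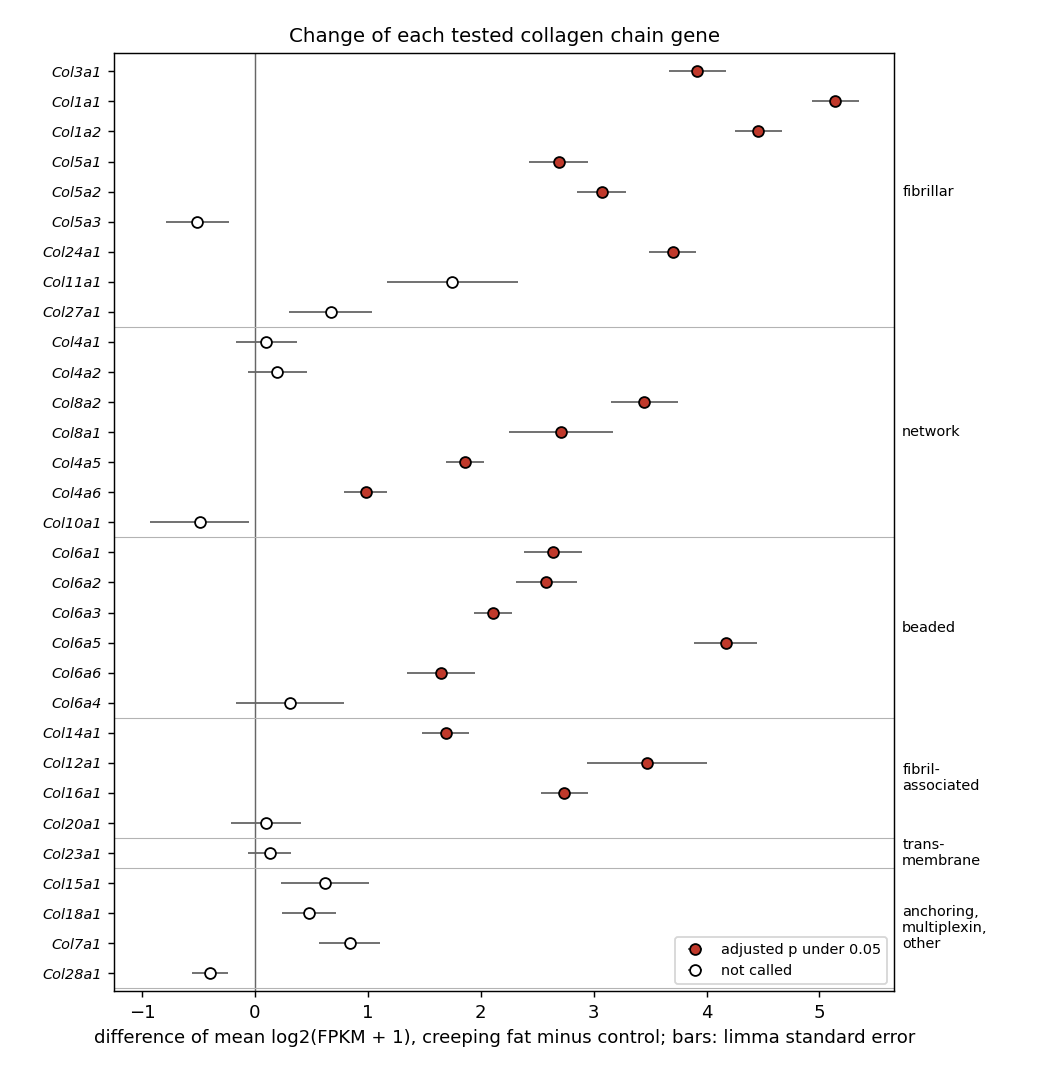
Creeping fat minus control difference in mean log2(FPKM + 1) for the 31 tested collagen chains, with limma standard errors as bars. Filled points mark the 18 chains with an adjusted p under 0.05, all to the right of 0, from Col4a6 at 0.98 to Col1a1 at 5.14.

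Promoters of 4 chains that rose (Col1a2, Col3a1, Col24a1 and the beaded chain Col6a5) and of Col5a3, which was not called, are shown to set their sequences side by side. RefSeq promoters (GRCm38.p6) were matched for 35 of the 44 chains. The 250 bases before the transcription start are printed 5′ to 3′ on the strand of the gene, with capitals for the motifs searched on both strands. They are the TATA box, searched as TATAAA, the CCAAT box, the GC box, searched as GGGCGG, and the site of AP-1, searched as TGANTCA. Each window is given with its place: Col1a2 at chr6:4505368-4505617, Col3a1 at chr1:45311288-45311537 and Col24a1 at chr3:145292222-145292471 on the plus strand, and Col6a5 at chr9:105960644-105960893 and Col5a3 at chr9:20815068-20815317 on the minus strand.
Col1a2: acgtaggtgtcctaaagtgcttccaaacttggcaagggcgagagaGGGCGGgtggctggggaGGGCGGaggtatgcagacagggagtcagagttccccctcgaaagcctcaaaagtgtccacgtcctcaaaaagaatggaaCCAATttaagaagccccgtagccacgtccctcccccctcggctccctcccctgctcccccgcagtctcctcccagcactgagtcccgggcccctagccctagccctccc
Col3a1: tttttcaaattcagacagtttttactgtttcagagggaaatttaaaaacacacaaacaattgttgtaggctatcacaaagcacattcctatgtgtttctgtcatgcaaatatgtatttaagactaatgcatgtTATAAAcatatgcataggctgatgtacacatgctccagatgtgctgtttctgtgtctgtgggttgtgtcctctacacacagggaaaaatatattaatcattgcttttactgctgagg
Col24a1: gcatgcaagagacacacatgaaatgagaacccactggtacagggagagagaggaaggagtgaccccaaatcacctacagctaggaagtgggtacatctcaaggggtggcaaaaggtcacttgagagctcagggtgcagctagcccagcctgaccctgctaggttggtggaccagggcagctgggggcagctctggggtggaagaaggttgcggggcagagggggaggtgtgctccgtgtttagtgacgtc
Col6a5: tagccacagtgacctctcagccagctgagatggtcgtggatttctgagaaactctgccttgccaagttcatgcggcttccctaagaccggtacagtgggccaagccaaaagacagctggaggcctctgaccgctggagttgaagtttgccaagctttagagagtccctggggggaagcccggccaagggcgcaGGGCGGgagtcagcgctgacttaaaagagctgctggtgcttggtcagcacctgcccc
Col5a3: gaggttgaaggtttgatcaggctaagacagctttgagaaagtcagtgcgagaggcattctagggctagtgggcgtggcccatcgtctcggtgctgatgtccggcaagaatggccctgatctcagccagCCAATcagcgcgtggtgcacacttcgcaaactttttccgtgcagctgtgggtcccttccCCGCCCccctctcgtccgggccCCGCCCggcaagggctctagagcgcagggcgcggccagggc
No motif searched was in the windows of all 4 chains that rose. The Col1a2 window held GC boxes and a CCAAT box, that of Col3a1 a TATA box, that of Col6a5 a GC box and that of Col24a1 no match. The window of Col5a3, which was not called, held GC boxes and a CCAAT box like that of Col1a2. A GC box was in 21 of the 35 collagen promoters, against 32.7% of all 32851 RefSeq promoters. The CCAAT box was in 34.3% of collagen promoters against 33.8% of all, the TATA box in 14.3% against 12.4% and the AP-1 site in 2.86% against 6.75%. A match is a match of letters only.

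Network chains split into lower chains that rose and the abundant basement membrane pair, which was not called. Of 9 network chains 7 were tested and 4 rose (Col8a1, Col8a2, Col4a5 and Col4a6), and the median was 0.98. Col4a1, the main basement membrane chain, stood at 219, 215 and 148 FPKM in creeping fat and 208, 126 and 215 FPKM in controls. Its partner Col4a2 stood at 158, 140 and 102 FPKM in creeping fat and 131, 83.6 and 135 FPKM in controls. The groups overlapped for both chains, and neither was called (0.10 ± 0.27, limma adjusted p = 0.854, and 0.20 ± 0.26, limma adjusted p = 0.668). Without control 2, Col4a1 stood at -0.15 and Col4a2 at -0.020, and after quantile normalization Col4a1 stood at -0.0052, so the signs depended on that library and, for Col4a1, on the scaling. Col4a1 and Col4a2 lie head to head on chromosome 8, with annotated start sites 21 bases apart, so reads there cannot be assigned without strand, which concerns 22 exonic bases.

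The minor basement membrane chains Col4a5 and Col4a6 are also a head-to-head pair, on chromosome X with a gap of 1308 bases, and both rose. Col4a5 had 15.4, 20.2 and 15.6 FPKM in creeping fat and 4.70, 3.46 and 3.77 FPKM in controls, a rise of 1.86 ± 0.17 (limma adjusted p = 0.00159). Col4a6 had 4.73, 7.70 and 5.33 FPKM in creeping fat and 2.75, 2.37 and 2.22 FPKM in controls, a rise of 0.98 ± 0.19 (limma adjusted p = 0.0167). The Col4a6 groups did not overlap, but its call was lost without creeping fat 3 (1.04, limma adjusted p = 0.0586) and without control 3 (0.94, limma adjusted p = 0.0757). The remaining type IV chains, Col4a3 and Col4a4 of the kidney basement membrane, were at 0.247 to 1.05 FPKM and did not pass the filter.

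Type VIII collagen, a short-chain network collagen of vessel walls and injured tissue, rose in both chains. Col8a1 had 33.0, 14.8 and 7.57 FPKM in creeping fat and 1.62, 1.51 and 1.51 FPKM in controls. Controls were tight while creeping fat spread 4.36-fold, with creeping fat 1 highest, and the rise was 2.71 ± 0.46 (limma adjusted p = 0.0105). Col8a2 had 39.5, 29.5 and 21.3 FPKM in creeping fat and 2.49, 0.944 and 2.13 FPKM in controls, a rise of 3.45 ± 0.30 (limma adjusted p = 0.00137). Col10a1, the collagen of hypertrophic cartilage, was not called (-0.49 ± 0.44, limma adjusted p = 0.517). It stood at 1.37 to 1.63 FPKM in creeping fat and 1.19, 6.27 and 1.57 FPKM in controls, so its negative difference rested on control 2, without which it was 0.050.

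Most beaded filament chains rose, with 5 of 6 tested chains higher (Col6a1, Col6a2, Col6a3, Col6a5 and Col6a6) and a median of 2.35. Col6a1, Col6a2 and Col6a3 form the main type VI molecule. Col6a1 had 496, 561 and 544 FPKM in creeping fat and 84.2, 59.8 and 120 FPKM in controls, a rise of 2.64 ± 0.26 (limma adjusted p = 0.00215). Col6a2 had 268, 338 and 325 FPKM in creeping fat and 52.9, 34.8 and 70.7 FPKM in controls, a rise of 2.58 ± 0.27 (limma adjusted p = 0.00253). Col6a3, the chain from which endotrophin is cut, had 163, 142 and 156 FPKM in creeping fat and 34.7, 29.1 and 41.2 FPKM in controls, a rise of 2.11 ± 0.17 (limma adjusted p = 0.00114). The creeping fat libraries were close to each other in these 3 chains, with the highest at most 1.26 times the lowest.

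Col6a5, an alternative chain that can take the place of Col6a3, had the largest rise of the beaded group. It had 55.5, 63.0 and 115 FPKM in creeping fat and 3.09, 3.69 and 2.76 FPKM in controls, a rise of 4.17 ± 0.28 (limma adjusted p = 0.000620). Col6a6, a further alternative chain, had 5.60, 7.10 and 11 FPKM in creeping fat and 1.28, 2.92 and 1.33 FPKM in controls, a rise of 1.65 ± 0.30 (limma adjusted p = 0.0135) that was lost without control 3 (1.53, limma adjusted p = 0.0619). Both were highest in creeping fat 3, unlike the other called chains. Col6a4, their neighbour on chromosome 9, overlapped between groups, at 2.38, 0.421 and 1.61 FPKM in creeping fat and 0.349, 2.65 and 0.330 FPKM in controls. It was not called (0.31 ± 0.48, limma adjusted p = 0.728), stood at 0.042 (without creeping fat 1) to 0.79 (without control 2) with 1 library left out, and was called higher when creeping fat 2 and control 2 were both left out (1.15, limma adjusted p = 0.00422). The 3 genes lie side by side in the same orientation, Col6a6 27917 bases from Col6a5 and Col6a5 28810 bases from Col6a4.

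Of 9 fibril-associated chains 4 were tested and 3 rose (Col12a1, Col14a1 and Col16a1), with a median of 2.21. Col12a1, which binds type I fibrils in tendon and in healing tissue, had 166, 56.0 and 34.7 FPKM in creeping fat and 4.71, 6.91 and 4.51 FPKM in controls. Creeping fat 1 was 4.77 times creeping fat 3, but even creeping fat 3 lay well above the controls, and the rise was 3.47 ± 0.53 (limma adjusted p = 0.00792). Without creeping fat 1 it was 2.84 (limma adjusted p = 0.00893). Col14a1, a close relative of Col12a1 and well expressed in control fat, had 153, 104 and 118 FPKM in creeping fat and 31.3, 44.9 and 38.0 FPKM in controls, a rise of 1.69 ± 0.21 (limma adjusted p = 0.00409). Col16a1, a minor fibril-associated chain, had 48.7, 44.4 and 40.9 FPKM in creeping fat and 4.79, 8.14 and 5.0 FPKM in controls, a rise of 2.74 ± 0.21 (limma adjusted p = 0.000909). Col20a1 was not called (0.10 ± 0.31, limma adjusted p = 0.870), with 3.39 to 4.01 FPKM in creeping fat and 2.17, 6.16 and 2.69 FPKM in controls, and it was called higher without control 2 (0.46, limma adjusted p = 0.0396).

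The other 5 fibril-associated chains were too low to be tested. Col9a2, a type IX chain, had 0.846, 0.511 and 0.610 FPKM in creeping fat and 0.112, 0.128 and 0.0923 FPKM in controls, which is 49 to 84 recovered reads in creeping fat against 11 or 12 in controls. The groups did not overlap, and Col9a2 was called higher only when the filter was dropped. Col19a1 had 0.0750, 0.0237 and 0.0275 FPKM in creeping fat and 0.480, 0.215 and 0.154 FPKM in controls, with creeping fat below. Col9a1, Col9a3 and Col22a1 overlapped between the groups.

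No transmembrane, multiplexin or anchoring chain was called in limma on all 6 libraries. Col15a1, a multiplexin of the zone beneath basement membranes, was among the abundant chains of control fat, with 112, 147 and 95.1 FPKM in creeping fat and 88.1, 40.7 and 118 FPKM in controls. The groups overlapped, and the difference was 0.62 ± 0.39 (limma adjusted p = 0.344) but 0.19 without control 2, the lowest control. Col18a1, the multiplexin from which endostatin is cut, had 43.2, 37.6 and 27.6 FPKM in creeping fat and 24.8, 19.6 and 32.8 FPKM in controls, also with overlap (0.48 ± 0.24, limma adjusted p = 0.242, and 0.31 without control 2). Col7a1, the anchoring fibril chain of skin, had 1.84, 3.18 and 2.40 FPKM in creeping fat and 0.954, 1.63 and 0.378 FPKM in controls. All creeping fat values lay above the controls, but Col7a1 was not called (0.84 ± 0.27, limma adjusted p = 0.0860). Without control 2 it was called higher (1.06, limma adjusted p = 0.0119). Col28a1, a chain known from peripheral nerve, was the tested chain whose creeping fat values all lay below the controls, at 0.970, 0.928 and 0.982 FPKM in creeping fat and 1.95, 1.5 and 1.36 FPKM in controls. No creeping fat library reached 1 FPKM, so Col28a1 passed the filter through the controls alone, where it is high. It was not called (-0.40 ± 0.16, limma adjusted p = 0.131), and the Schwann cell markers were also lower in sum in creeping fat, at 14.5 to 21.2 FPKM against 26.7 to 39.0 FPKM in controls, a parallel whose part was not tested.

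Col23a1 was the sole tested transmembrane chain, at 1.57, 2.38 and 1.79 FPKM in creeping fat and 1.27, 2.13 and 1.59 FPKM in controls, with overlap (0.13 ± 0.19, limma adjusted p = 0.701). Col13a1, Col17a1 and Col25a1 reached at most 0.434 FPKM in any library, and Col26a1 reached at most 0.383 FPKM, in control 2. Of these, Col13a1 had all its creeping fat values, 0.416 to 0.422 FPKM, above its control values of 0.132 to 0.387 FPKM. In all, 13 chains were not tested, with values between 0 and 1.66 FPKM, and 3 of them, Col2a1, Col9a1 and Col26a1, were listed at 0 in at least 1 library.

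The unequal rises changed the make-up of the collagen transcripts. Fibrillar chains held 84.0%, 86% and 81.8% of the summed collagen FPKM in creeping fat, against 44.2%, 50.9% and 45.2% in controls. Network chains held 3.79%, 3.11% and 3.08% in creeping fat, against 28.5%, 22.5% and 24.8% in controls. In summed FPKM, however, network chains stood at 472, 430 and 302 in creeping fat and 354, 225 and 363 in controls, with overlap, so their smaller share went with the larger total. Col1a1, Col1a2 and Col3a1 alone made up 79.6% ± 1.83 of collagen FPKM in creeping fat and 36.4% ± 3.74 in controls (SD, n = 3 each). By mean share, Col1a1 ranked 2 in creeping fat and 5 in controls, whereas Col4a1 ranked 8 in creeping fat and 2 in controls. Col5a3 ranked 16 in creeping fat and 8 in controls. These shares sum to a whole, so a chain can lose share without a lower level.

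**Figure D3:**
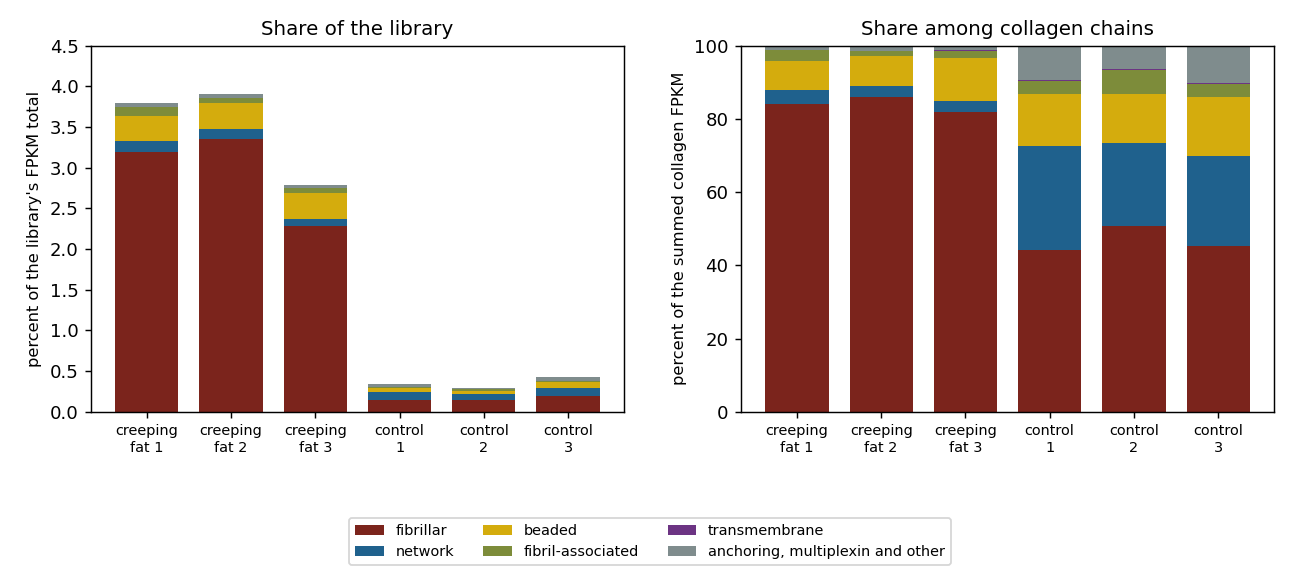
Summed FPKM of the collagen groups in each library, as a percent of the library's FPKM total (left) and of the summed collagen FPKM (right), with the 3 creeping fat libraries left of the 3 controls. The creeping fat bars on the left reach 2.79% to 3.91% and the control bars 0.294% to 0.423%, and on the right fibrillar chains fill 81.8% to 86% of the creeping fat bars and 44.2% to 50.9% of the control bars.

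Ratios of chains within a library do not depend on the library's total and were set for 9 pairs. The smallest p of a two-sided exact permutation test with 3 + 3 libraries is 0.1, so none of the ratios could pass. After Benjamini-Hochberg adjustment over these 9 ratios the smallest value was 0.150. Type I collagen is mostly a heterotrimer with more Col1a1 than Col1a2 chains. The ratio of Col1a1 to Col1a2 was 1.37, 1.43 and 1.36 in creeping fat and 0.901, 0.805 and 0.888 in controls, without overlap (log2 difference 0.68, exact permutation p = 0.1). Col3a1 over Col1a1 was 0.962, 1.00 and 1.07 in creeping fat and 2.58, 1.80 and 2.84 in controls, also without overlap (log2 difference -1.23, exact permutation p = 0.1). Thus the 2 chains stood at nearly equal FPKM in creeping fat, and type III led in controls. Col5a1 over Col1a1 was 0.0625, 0.0809 and 0.0699 in creeping fat and 0.373, 0.315 and 0.473 in controls (log2 difference -2.43, exact permutation p = 0.1). Col4a1 over Col1a1 differed most, at 0.0593, 0.0515 and 0.0545 in creeping fat and 2.28, 1.25 and 2.15 in controls (log2 difference -5.05, exact permutation p = 0.1). Col8a1 over Col4a1 was 0.151, 0.0688 and 0.0512 in creeping fat and 0.00778, 0.0119 and 0.00699 in controls (log2 difference 3.23, exact permutation p = 0.1).

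Partner chains of types IV, V and VI differed less. Col4a1 over Col4a2 was 1.38, 1.54 and 1.46 in creeping fat and 1.58, 1.51 and 1.60 in controls, with overlap (log2 difference -0.10, exact permutation p = 0.200). Col6a2 over Col6a1 was 0.541, 0.603 and 0.597 in creeping fat and 0.628, 0.582 and 0.591 in controls, with overlap (log2 difference -0.05, exact permutation p = 0.6). Col6a3 over Col6a1 was 0.328, 0.253 and 0.287 in creeping fat and 0.412, 0.487 and 0.344 in controls, so all creeping fat values were lower (log2 difference -0.51, exact permutation p = 0.1). Col5a1 over Col5a2 overlapped, at 1.03, 1.59 and 1.26 in creeping fat and 1.49, 1.82 and 1.77 in controls (log2 difference -0.40, exact permutation p = 0.200).

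**Figure D4:**
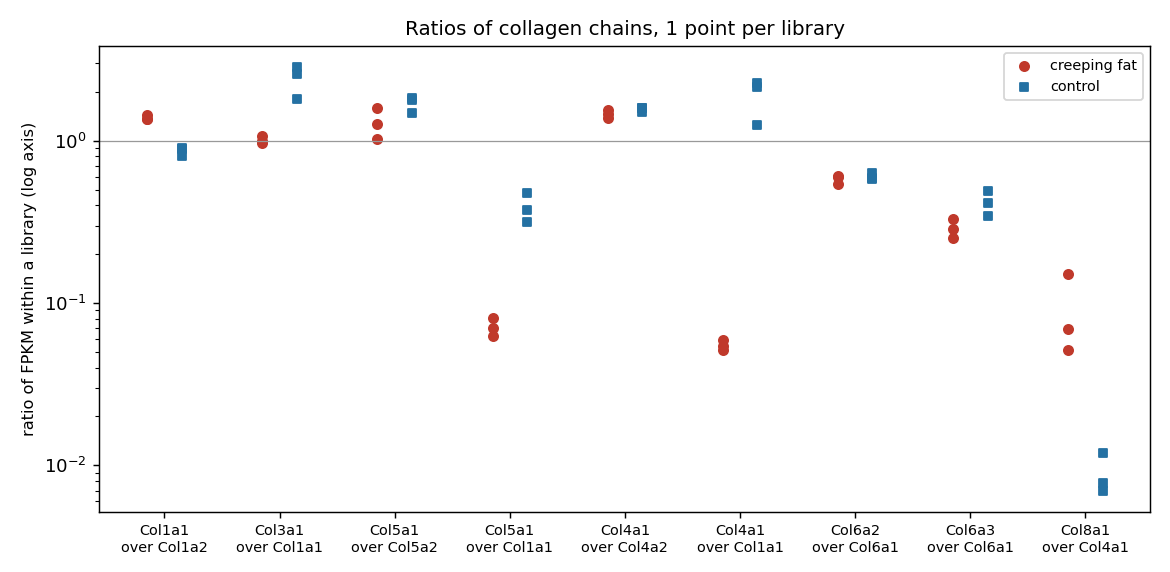
Ratio of the FPKM of 2 collagen chains within each library (log axis), with creeping fat as circles left of controls as squares and a line at 1. The groups are separate for 6 of the 9 ratios, most widely for Col4a1 over Col1a1, and overlap for Col5a1 over Col5a2, Col4a1 over Col4a2 and Col6a2 over Col6a1.

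The 18 chains that rose did not share an order over the creeping fat libraries. Creeping fat 2 was highest in 9 of them, creeping fat 1 in 7 and creeping fat 3 in 2. Col1a1, Col1a2, Col3a1, Col5a1 and Col24a1 shared the order 2, 1, 3, all of them fibrillar. Col12a1, Col16a1, Col5a2, Col8a1 and Col8a2 shared the order 1, 2, 3, and Col4a5, Col4a6, Col6a1 and Col6a2 the order 2, 3, 1. Col6a5 and Col6a6 alone had creeping fat 3 first. The widest spreads, 4.77-fold and 4.36-fold, were those of Col12a1 and Col8a1, against 1.13-fold for Col6a1. With 3 libraries these orders are a description of the samples, and no test was made.

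**Figure D5:**
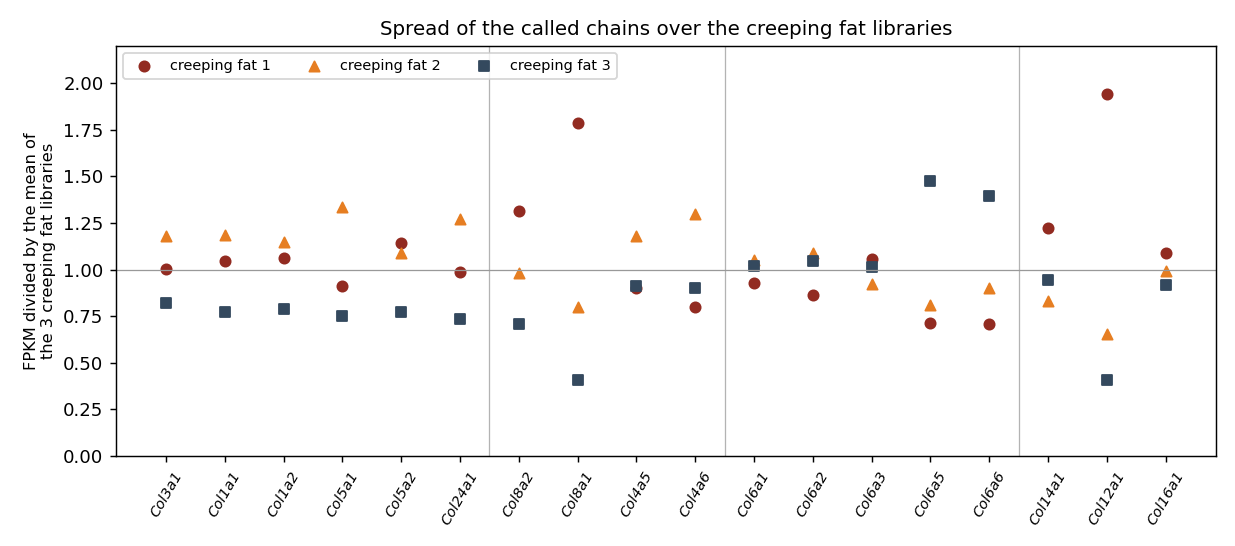
FPKM of the 18 called collagen chains in each creeping fat library, divided by the mean of the 3 creeping fat libraries, with vertical lines between collagen groups (fibrillar, network, beaded, fibril-associated). Creeping fat 1 stands apart upward in Col8a1 and Col12a1, creeping fat 3 in Col6a5 and Col6a6, and Col6a1 has the narrowest spread, 1.13-fold.

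Many genes that modify, export, join and cut collagen chains also rose. Of 49 tested genes on 6 lists, 30 rose and 1 fell, with a median of 0.96, beside the 9.35% higher and 6.81% lower of all tested genes. Of these 30, P4ha3, Adamts3 and Mmp13 had at least 1 FPKM in no control and so passed the filter through creeping fat alone, where they are high. Among hydroxylation and glycosylation enzymes 10 of 14 rose and 0 fell, with the largest changes on log2(FPKM + 1) in P4ha3, a catalytic subunit of prolyl hydroxylase (2.46 ± 0.37, limma adjusted p = 0.00758), and Plod2, a lysyl hydroxylase (1.99 ± 0.23, limma adjusted p = 0.00366). Among folding and export genes 4 of 9 rose and 0 fell, with the largest changes in Fkbp10, an endoplasmic reticulum prolyl isomerase (2.31 ± 0.19, limma adjusted p = 0.00114), and Creb3l1, a transcription factor that activates type I collagen genes (2.02 ± 0.22, limma adjusted p = 0.00277). Propeptide removal had 5 of 7 higher and 1 lower. Adamts2, which cuts the amino end of procollagen, rose by 2.42 ± 0.20 (limma adjusted p = 0.00122) and Bmp1, which cuts the carboxyl end, by 2.41 ± 0.19 (limma adjusted p = 0.00114). Pcolce2, an enhancer of Bmp1, fell by 1.32 on the log2 scale (SE 0.32, limma adjusted p = 0.0323), with 4.52, 7.49 and 8.06 FPKM in creeping fat and 21.9, 11.2 and 22.8 FPKM in controls. All 5 tested crosslinking enzymes rose, with the largest changes in Lox (2.49 ± 0.37, limma adjusted p = 0.00720) and Loxl2 (2.12 ± 0.28, limma adjusted p = 0.00506).

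Genes of collagen cleavage also rose, and most receptors did not pass. All 5 tested genes of collagen cleavage rose, with a median of 3.33. On log2(FPKM + 1) the largest changes were those of the gelatinase gene Mmp2 (4.0 ± 0.16, limma adjusted p = 9.72e-05) and Ctsk, a lysosomal collagen-cutting protease (3.61 ± 0.15, limma adjusted p = 9.72e-05). As a ratio of mean FPKM the order differed, at 16.5 for Mmp2, 14.1 for Ctsk and 88.6 for the collagenase gene Mmp13, which is named here after its values were seen. Mmp13 had 25.8, 4.59 and 7.96 FPKM in creeping fat and 0.0192, 0.276 and 0.138 FPKM in controls, and its 3.27 ± 0.53 (limma adjusted p = 0.00945) was compressed by the added 1. Of 9 tested receptors and uptake genes only Mrc2, which takes up collagen fragments, rose (2.59 ± 0.14, limma adjusted p = 0.000304), and the list had a median of 0.45.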

How the data were processed

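RNA of 6 adipose tissue libraries of wild-type mice was sequenced, 3 of creeping fat and 3 of control mesenteric fat. Per the labels' protocols, total RNA with an integrity number of at least 7 was depleted of ribosomal RNA and made into stranded libraries. The authors deposited FPKM values for 22134 gene symbols, with mm10 named as the build in the submitters' processing notes. Aligner, counter, annotation and strand setting are not given in the sources used here, so reads of overlapping genes cannot be told apart.

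Group and replicate number come from the sample titles. The members, lists and alternatives were chosen with earlier results of these data known. A gene was tested if 3 or more libraries had 1 FPKM or more, which kept 12812 genes, and values were compared as log2(FPKM + 1) in limma 3.58.1 (R 4.3.3; lmFit, eBayes with a mean-variance trend, group only, two-sided, Benjamini-Hochberg over all tested genes), with adjusted p under 0.05 as the threshold. Errors of FPKM are SDs over 3 libraries. The added 1 understates changes of low genes. Whole reads were recovered from the FPKM values for 18713 of 18714 genes above 0, within a tolerance of 0.002 reads, and gave the library totals, up to a whole factor common to all libraries of a gene with few reads. Voom on these reads was an alternative. Members with a mean of at least 1 FPKM over the 6 libraries, or called, were named with values. In each pathway list the 2 largest called changes in the main direction and the largest the other way were named. Positions and coding sequences come from GENCODE M21, promoters from RefSeq. In simulated data of 12812 genes, limma called 33 of 100 changes of 1 on the log2 scale and 92 of 100 changes of 3. It made 4 false calls among the unchanged genes. Changed genes were a far smaller share there than the 16.2% called in these data, and the adjusted p depends on that share. The simulated counts therefore do not give the power of the test here. A chain that was not called is not shown to be unchanged.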

Additional observations from a re-analysis of the deposited data

How the results depend on the processing

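Under 18 other settings, 16 of the 18 chains called higher were called in every setting that tested them, and the exceptions were Col4a6 and Col6a6. The number called higher was 16 to 22 with 1 library left out, 22 when creeping fat 2 and control 2 were dropped together, 19 with no filter and 16 with a mean of at least 5 FPKM. With the replicate number as a block it was 17, and Col4a6 (0.98, limma adjusted p = 0.0592) was the one lost. Same-numbered samples did not deviate together (correlations -0.181, -0.18 and -0.081), so the block pairs samples by number alone. The number called lower was 0 to 1 with 1 library left out and 1 with creeping fat 2 and control 2 left out, where Col5a3 was called. Over all genes the counts called moved from 1198 higher and 872 lower to 2896 and 1857 without control 2, to 576 and 287 without creeping fat 1, and to 636 and 378 with the block. With 5 added in place of 1, Col24a1 stood at 1.82, Col8a1 at 1.69, Col6a6 at 0.90 and Col4a6 at 0.54.

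Signs turned for chains that were not called. With 1 library left out, Col10a1 ranged from -0.81 to 0.050, Col20a1 from -0.13 to 0.46, Col4a1 from -0.15 to 0.28 and Col4a2 from -0.020 to 0.38. Col10a1 was 0.050 without control 2 and 0.076 without creeping fat 2 and control 2. Col20a1 was -0.13 without control 1 and -0.020 without control 3. Col4a1 was -0.0052 after quantile normalization, -0.15 without control 2 and -0.23 without creeping fat 2 and control 2. Col4a2 was -0.020 without control 2 and -0.067 without creeping fat 2 and control 2. Without creeping fat 2 and control 2 the log2 ratio difference was 0.61 for Col1a1 over Col1a2 and -0.17 for Col4a1 over Col4a2. The cause was not tested. Depth limits Col2a1 and Col9a1, which had few reads. The share of collagen chains in the FPKM total cannot change when a library is rescaled by the median ratio, so that setting gives no value for it.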
